A study of Homo sapiens with 21 samples.

Results

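The genes described here encode ISL1 and the proteins that build or compete for its LIM complex. They are the factors ISL1 and ISL2, the cofactors LDB1, LDB2, SSBP2, SSBP3 and SSBP4, and the LIM-only proteins LMO1, LMO2 and LMO4. They were taken by symbol from a table of read counts, which held each of the 10 once among 62699 genes. RNA was sequenced from pancreatic islet cells that had been made in culture from H1, an established human embryonic stem cell line. The 21 libraries cover 4 genotypes, namely unedited cells (WT) and cells labelled ISL1-/-, PAX6-/- or PDX1-/-, all with a lentiviral vector added on day 11 and all collected on day 18 by sorting for the blue fluorescent protein BFP. The vector carried BFP alone, or ISL1 followed by BFP through an internal ribosome entry site. WT has 2 libraries for either vector and PDX1-/- has 2 with the ISL1 vector, while the remaining 5 groups have 3. All groups went through the same sort and met Y-27632 and protamine sulfate along with the virus. The labels do not say how many clones stand behind a genotype or which promoter drives the vector. The series describes the replicates as biological, without naming separate differentiations, and the p-values below measure the spread between these libraries.

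ISL1 is a transcription factor with a DNA-binding homeodomain and a pair of LIM domains, zinc-binding folds through which it meets other proteins. Its LIM domains are bound by LDB1 or LDB2, adaptor proteins that self-associate and so link proteins on distant stretches of DNA, and the SSBP proteins bind the LDB proteins and protect them from degradation. The LMO proteins are made of little more than LIM domains, do not bind DNA themselves, and can occupy LDB in place of a LIM-homeodomain factor, and in blood-forming cells LMO2 joins LDB1 to TAL1 and GATA factors. In the pancreas ISL1 is needed for endocrine cells to mature and is found in all hormone-producing islet cell types.

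The deposited counts summed to between 36.8 and 60.2 M per library, and a level below is a normalised read count (CPM), scaled for library size. Genes of the endocrine marker list, such as CHGA and CPE, summed to 11787 CPM or more in every library and are markers of the labelled islet cells. A pair of libraries stood apart from the others. PAX6-/- with ISL1 vector replicate 3 had 3.16% and PDX1-/- with ISL1 vector replicate 4 had 3.84% of counts in mitochondrial genes, against 1.28 to 1.93% in the other 19. Replicate 4 differed from replicate 2 of its own group by a root mean square of 1.54 on the log2 scale and lay nearest to PAX6-/- with ISL1 vector replicate 3. Results that rest on these libraries are given with and without them.

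Promoter entries in the RefSeq table (build GRCh38.p14) were found for 7 of the 10 genes, without LDB2, SSBP4 and LMO2. The upstream bases of ISL1 and LMO1 are shown because ISL1 is the gene that was knocked out and supplied, and because LMO1 fell in PAX6-/- cells. TAAT, the core letters that many homeodomain proteins recognise, was searched on both strands beside GATA and CANNTG, with overlapping matches counted separately. Capitals mark TAAT. The ISL1 stretch ends before the first annotated ISL1 transcript, and the start of its divergent neighbour ISL1-DT, at position 51383332, lies inside it.
ISL1, chr5:51383198-51383390, plus strand: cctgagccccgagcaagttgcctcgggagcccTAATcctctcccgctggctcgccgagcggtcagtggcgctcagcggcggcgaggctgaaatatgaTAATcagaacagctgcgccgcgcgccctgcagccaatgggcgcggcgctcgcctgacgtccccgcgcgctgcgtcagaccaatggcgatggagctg
LMO1, chr11:8268788-8269037, minus strand: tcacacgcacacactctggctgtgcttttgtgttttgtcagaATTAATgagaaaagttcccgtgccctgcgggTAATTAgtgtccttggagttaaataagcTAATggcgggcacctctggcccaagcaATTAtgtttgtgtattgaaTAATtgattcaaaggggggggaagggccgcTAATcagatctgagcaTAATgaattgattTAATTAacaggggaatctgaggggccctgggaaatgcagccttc
The ISL1 stretch holds 2 matches and the LMO1 stretch 11, the most among the 7 genes with entries. All windows of ISL2, LDB1, SSBP2 and LMO4 held 0 matches, and those of SSBP3 held 1 and 0. Among 27305 promoter windows of 250 bases, 48.2% held at least 1 match, 28.2% at least 2 and 0.168% at least 11. The LMO1 window has a GC content of 45.6%, below the median of 58% over all windows. GATA was in 46.5% and CANNTG in 62.2% of all windows, and the LMO1 window holds neither. A match describes the letters and says nothing of binding.

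ISL1 (chr5:51383448-51394730 in the deposited annotation, GRCh38), which marks maturing endocrine cells, had its highest level in WT and its lowest in ISL1-/- libraries. In WT with BFP it was at 306 and 519 CPM, and in ISL1-/- with BFP at 73.7, 74.6 and 82.4 CPM. The ISL1-/- libraries all lay far below WT and close to each other, and their mean was 18.6% of the WT mean, so a transcript was still counted from the gene labelled as knocked out. A transcript level does not show whether protein was made, and which part of the gene was edited is not given in the sources used here. The log2 fold change was -2.42 (SE 0.39, adjusted p = 0.00126 in edgeR's quasi-likelihood test with Benjamini-Hochberg adjustment).

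ISL1 counts lay below WT in the other knockouts as well. PAX6-/- with BFP held 209, 133 and 236 CPM, and PDX1-/- with BFP held 153, 174 and 132 CPM. All 6 libraries lay below both WT libraries and above all ISL1-/- libraries. In a bulk library, fewer cells of a type and less RNA per cell cannot be told apart. The fold change passed the test for PDX1-/- (log2 -1.43, SE 0.39, adjusted p = 0.0254) and did not for PAX6-/- (-1.10, SE 0.39, adjusted p = 0.112). The PDX1-/- call was lost when any of its own 3 libraries or WT with BFP replicate 3 was left out, with log2 values from -1.77 to -1.01 over the leave-one-out fits.

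The libraries with the ISL1 vector did not hold more ISL1 counts than those with BFP. WT with ISL1 vector had 361 and 338 CPM, between the WT libraries with BFP. ISL1-/- with ISL1 vector had 71.6, 85.1 and 96.8 CPM, a range that overlaps the 73.7 to 82.4 CPM with BFP. PAX6-/- with ISL1 vector had 166, 126 and 356 CPM, and PDX1-/- with ISL1 vector had 138 and 313 CPM. The highest values in both of these groups are the 2 libraries that stood apart. The log2 difference between vectors was -0.24 for WT (SE 0.43), 0.13 for ISL1-/- (SE 0.35), 0.16 for PAX6-/- (SE 0.35) and 0.56 for PDX1-/- (SE 0.39), with adjusted p from 0.338 to 1 in edgeR. None of these passed in any alternative setting either. Without both libraries that stood apart the sign turned, to -0.41 for PAX6-/- (adjusted p = 0.326) and -0.12 for PDX1-/- (adjusted p = 0.85). The ISL1 counts thus give no check of which vector a library received, and how much of the vector's own ISL1 transcript entered them was not tested. Against WT with the ISL1 vector, ISL1 was not called in PAX6-/- or PDX1-/- with all libraries. Without both that stood apart, its log2 fold changes there were -1.28 and -1.33. The first of these passed edgeR's test. The second comes from replicate 2 alone, so only its size is given.

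In order of the mean, ISL1 was at 412.5 CPM in WT with BFP, 349.5 in WT with ISL1 vector, 225 in PDX1-/- with ISL1 vector, 216 in PAX6-/- with ISL1 vector, 192.5 in PAX6-/- with BFP, 153 in PDX1-/- with BFP, 84.5 in ISL1-/- with ISL1 vector and 76.9 in ISL1-/- with BFP. Neighbours in this order overlapped in their libraries, except that WT with ISL1 vector lay above PDX1-/- with ISL1 vector and PDX1-/- with BFP lay above ISL1-/- with ISL1 vector. ISL1-DT, the noncoding gene that starts 116 bases from ISL1 on the opposite strand, averaged 10.97 CPM in WT with BFP, 5.22 in ISL1-/- with BFP, 8.19 in PAX6-/- with BFP and 3.76 in PDX1-/- with BFP. Its decrease passed the test in PDX1-/- (log2 -1.54, SE 0.40, adjusted p = 0.0207 in edgeR) and not in ISL1-/- (-1.07, SE 0.40, adjusted p = 0.136). The library kit, SMART-Seq v4, does not mark strand, so reads of overlapping genes cannot be told apart, but ISL1 and ISL1-DT share no exon base.

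ISL2 (chr15:76336773-76342475), the close relative of ISL1, was nearly silent. Its 2 to 23 counts per library correspond to at most 0.388 CPM, and ISL1 was the higher of the pair per kilobase of exon in all 21 libraries. No change of ISL2 passed edgeR's test in the 16 comparisons, where its lowest unadjusted p was 0.0154, and limma voom with sample weights called it in PAX6-/- against WT with BFP. A noncoding gene on the opposite strand shares 17.9% of its exon bases and held at most 4 counts in any library.

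**Figure D1:**
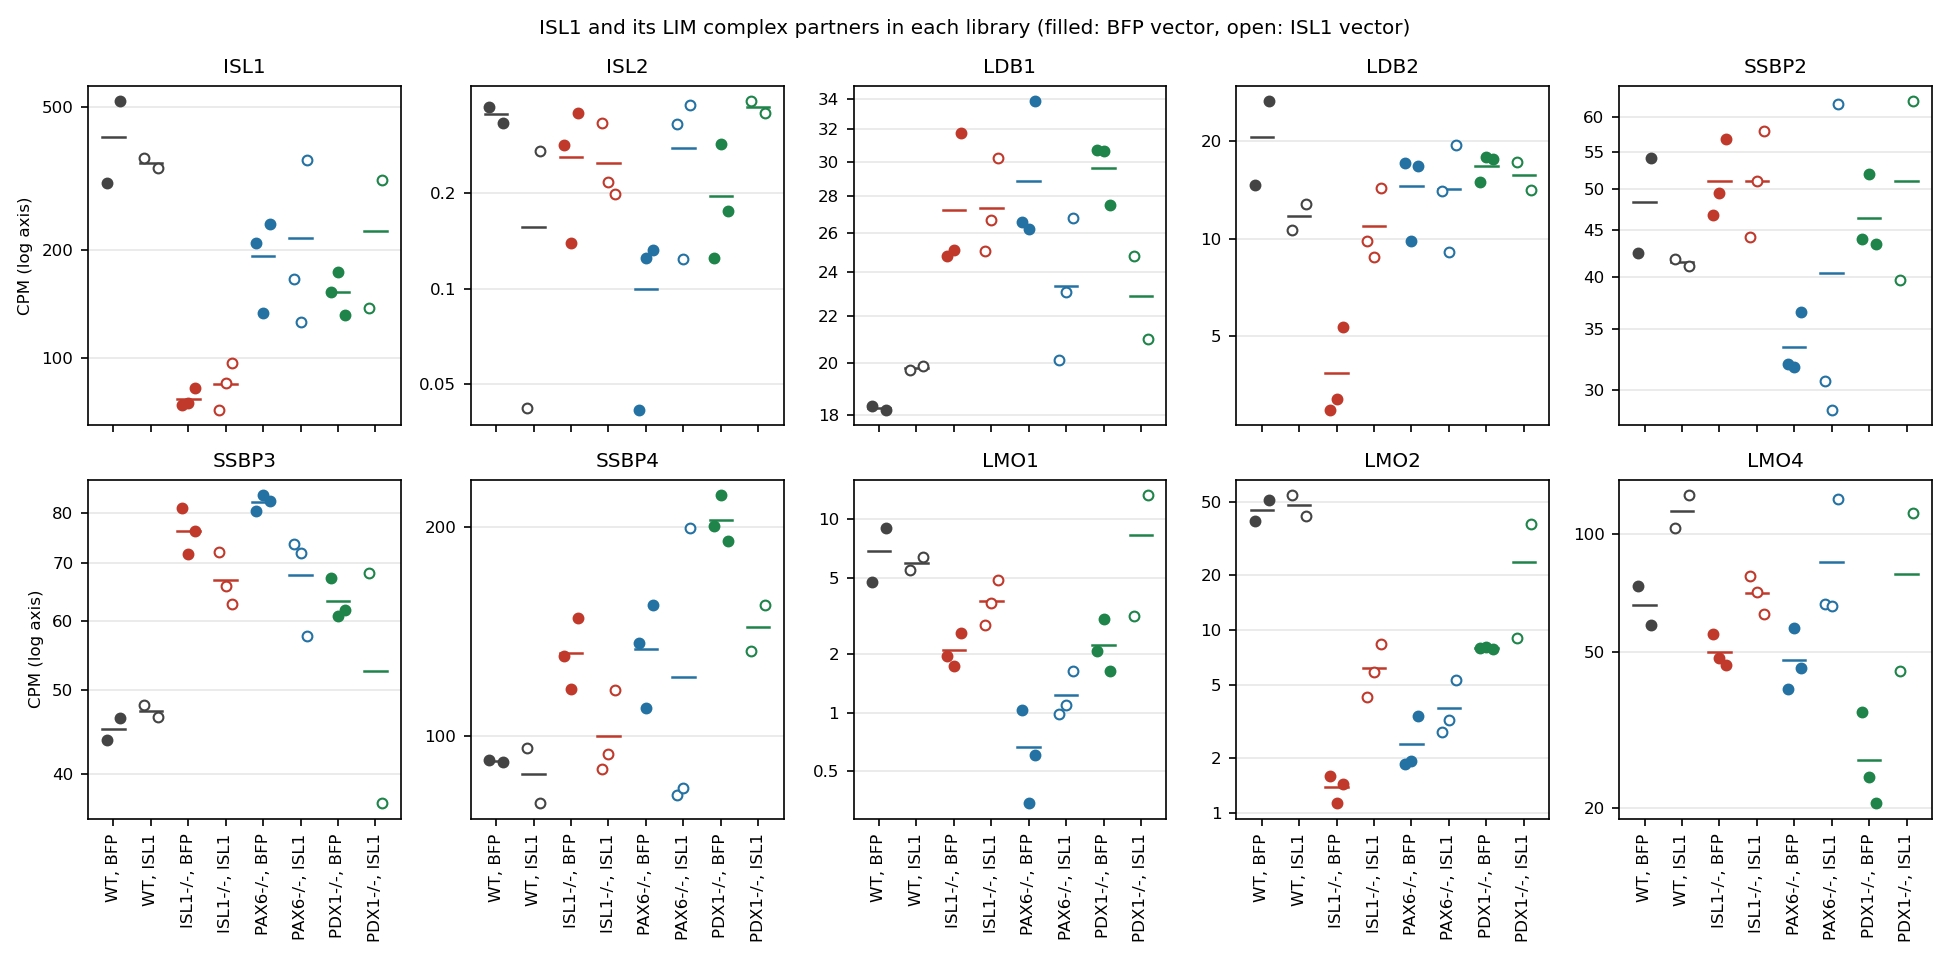
Level of each of the 10 genes in each of the 21 libraries, in CPM on a log axis that differs between panels; points are libraries, filled for the BFP vector and open for the ISL1 vector, coloured by genotype, and short lines are group means. LMO2 lies at 39.5 CPM or more in the 4 WT libraries and at 9.05 CPM or less in 16 of the 17 knockout libraries, the exception being PDX1-/- with ISL1 vector replicate 4 at 37.9 CPM.

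LDB1 (chr10:102106489-102120368), the widely expressed adaptor, varied little. WT with BFP had 18.3 and 18.2 CPM and WT with ISL1 vector 19.7 and 19.9 CPM, and the knockout libraries ran from 20.1 to 33.9 CPM, so all 17 lay above all 4 WT libraries. With BFP the log2 fold change over WT was 0.58 (SE 0.20, adjusted p = 0.101) in ISL1-/-, 0.66 (SE 0.20, adjusted p = 0.059) in PAX6-/- and 0.70 (SE 0.20, adjusted p = 0.0322) in PDX1-/-, in edgeR. The PDX1-/- call was lost in all 5 fits that left out 1 library of these groups, with adjusted p up to 0.226, and without a filter on low counts (0.241). The span of its group means, 0.69 on the log2 scale, exceeded that of only 26.2% of tested genes with a mean of at least 10 CPM.

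LDB2 (chr4:16501541-16898678), the second adaptor of the family, was low in ISL1-/- cells with BFP. ISL1-/- with BFP had 2.96, 3.21 and 5.34 CPM, against 14.7 and 26.6 CPM in WT with BFP, 17.1, 9.84 and 16.7 CPM in PAX6-/- with BFP and 14.9, 18.0 and 17.6 CPM in PDX1-/- with BFP. The 3 ISL1-/- libraries lay below every other library of the study. The log2 fold change was -2.43 over WT (SE 0.36, adjusted p = 0.000641), -1.92 over PAX6-/- (SE 0.33, adjusted p = 0.00279) and -2.13 over PDX1-/- (SE 0.33, adjusted p = 0.00112), in edgeR. The last 2 values test the difference between knockouts directly. All 3 calls held in every leave-one-out fit and in all 8 other settings. In PAX6-/- and PDX1-/- the fold changes over WT were -0.50 (SE 0.35) and -0.29 (SE 0.35) and did not pass.

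With the ISL1 vector, LDB2 in ISL1-/- was at 9.80, 8.79 and 14.3 CPM, each above each of the libraries with BFP. The log2 difference was 1.52 (SE 0.33), with unadjusted p = 0.000219 and adjusted p = 0.0545 in edgeR, which misses the threshold. It passed in 7 of 8 other settings, the exception being RLE scaling at adjusted p = 0.0596, and in none of the 6 fits that left out 1 library of the pair of groups. WT with ISL1 vector held 10.6 and 12.8 CPM, so with this vector ISL1-/- and WT overlapped (log2 -0.10, SE 0.36, adjusted p = 0.947). In WT the vector difference had the other sign, -0.81 (SE 0.39, adjusted p = 1). The difference between the vector effects, 2.33 (SE 0.51, unadjusted p = 0.000263), had adjusted p = 0.582 in edgeR.

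Per kilobase of exon, LDB1 exceeded LDB2 in 20 of 21 libraries, the exception being WT with BFP replicate 3. LDB2 made up 35.7 and 50.3% of the LDB level per length in WT with BFP, 7.63, 8.12 and 10.4% in ISL1-/- with BFP, and 18.6 to 24.7% in ISL1-/- with ISL1 vector. These 3 ranges do not overlap. In PAX6-/- and PDX1-/- libraries with either vector the share was between 20.6 and 33.5%, and WT with ISL1 vector, at 27.1 and 30.9%, lay inside that range.

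The SSBP proteins bind and stabilise the LDB adaptors, and SSBP2 and SSBP3 are the forms most often described in such complexes. SSBP2 (chr5:81412804-81751797) ran from 28.5 to 62.5 CPM over all libraries and passed edgeR's test in no comparison, with a lowest unadjusted p of 0.029. It was called with limma voom, and without both libraries that stood apart, in 4 comparisons that involve PAX6-/-. SSBP3 (chr1:54225432-54413479) was at 43.8 and 46.3 CPM in WT with BFP, at 81.1, 71.8 and 76.4 CPM in ISL1-/- with BFP and at 80.5, 84.0 and 82.6 CPM in PAX6-/- with BFP. It rose by 0.76 on the log2 scale in ISL1-/- (SE 0.22, adjusted p = 0.0479) and by 0.87 in PAX6-/- (SE 0.22, adjusted p = 0.0266), in edgeR, while PDX1-/- with BFP, at 60.9 to 67.3 CPM, did not pass (0.49, SE 0.22, adjusted p = 0.181). The libraries of each of these knockouts all lay above WT, but both calls ended in each of the 5 leave-one-out fits and without a filter on low counts. PDX1-/- with ISL1 vector replicate 4, at 37.0 CPM, was the lowest SSBP3 value of the study.

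SSBP4 (chr19:18418864-18434562) had the highest level of the family per length in all 21 libraries, with 67.6% or more of the SSBP level. It was at 92.4 and 92.0 CPM in WT with BFP and at 200, 222 and 191 CPM in PDX1-/- with BFP, with no overlap. Its rise of 1.15 on the log2 scale passed the test (SE 0.31, adjusted p = 0.0267 in edgeR), and the call was lost in all 5 leave-one-out fits, with adjusted p up to 0.195. SSBP4 shares 175 exon bases, 5.88% of its own, with ISYNA1 on the opposite strand, a gene of 4161 to 13697 counts per library, so some of its counts may not be its own. SSBP3 shares 33 exon bases with MRPL37 and 75 with SSBP3-AS1.

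**Figure D2:**
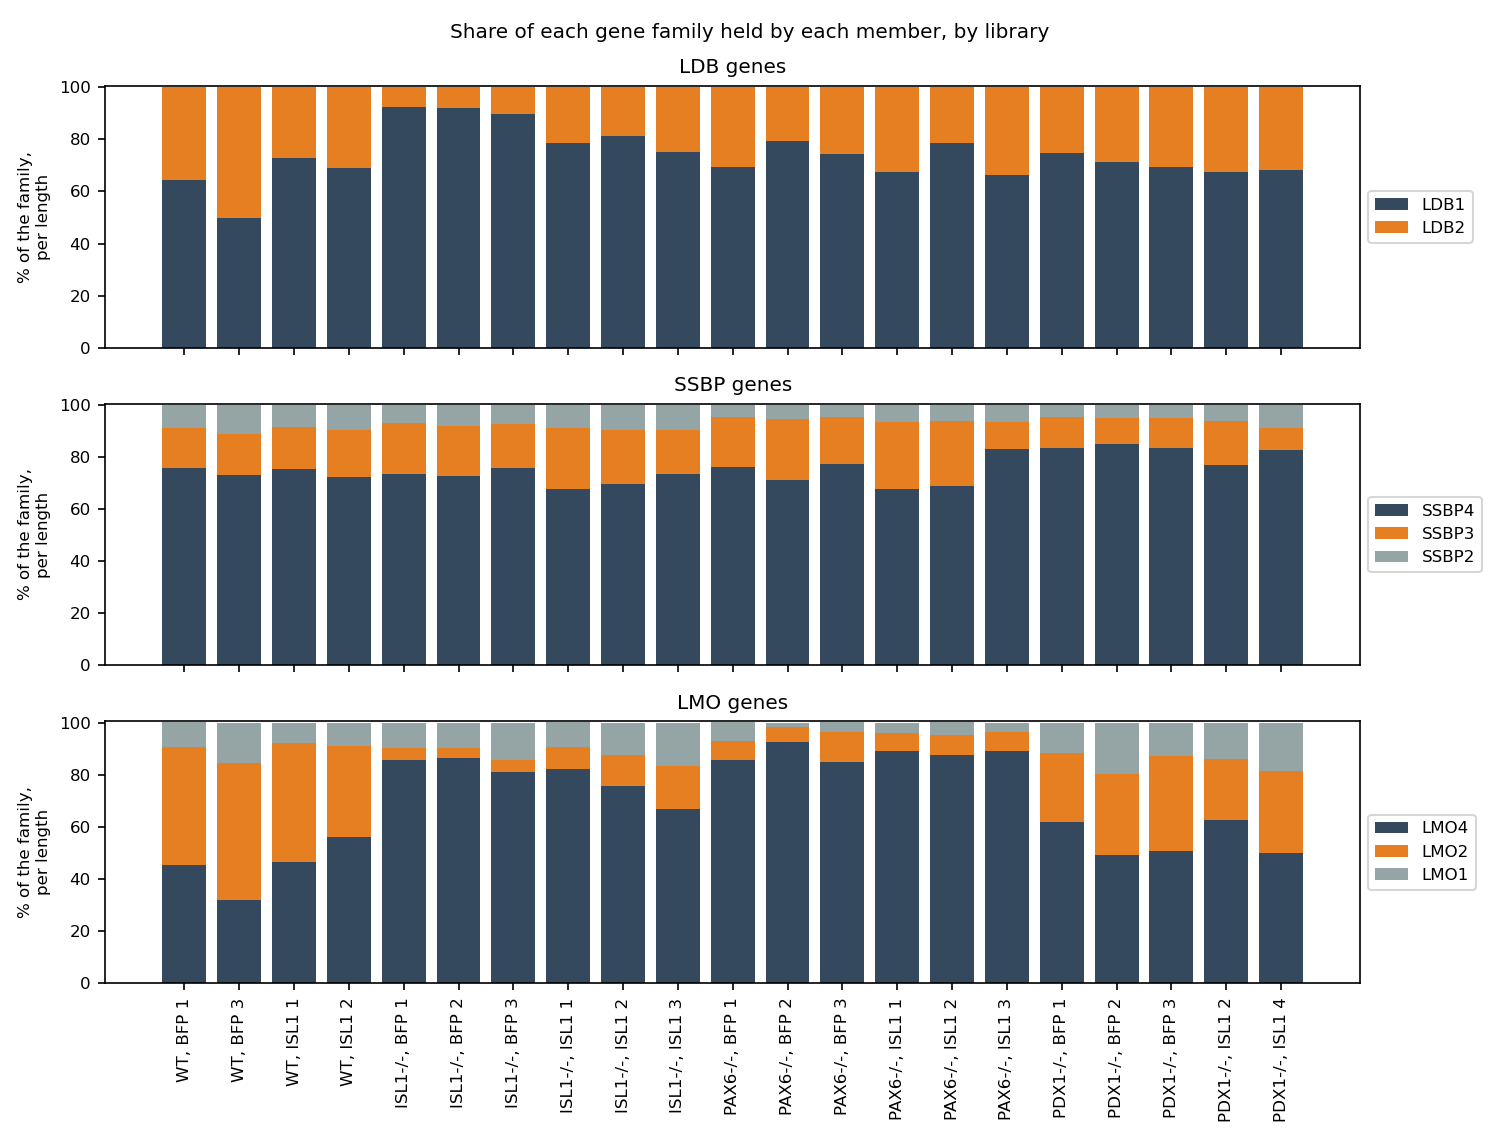
Share of the level per kilobase of exon that each gene holds within the LDB, SSBP and LMO families, as stacked bars in percent for each of the 21 libraries. The LDB2 band narrows to 7.63 to 10.4% in ISL1-/- with BFP, and the LMO2 band, 34.8 to 52.4% in WT, narrows to 3.77 to 4.67% in the same libraries.

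LMO2 (chr11:33858576-33892076), the bridging protein of blood stem cell complexes and an oncogene of T-cell leukaemia, had the widest range of the 10 genes. WT with BFP had 39.5 and 51.3 CPM and WT with ISL1 vector 54.7 and 41.8 CPM. It was at 1.59, 1.13 and 1.43 CPM in ISL1-/- with BFP, at 1.85, 1.91 and 3.39 CPM in PAX6-/- with BFP, and at 8.00, 8.06 and 7.89 CPM in PDX1-/- with BFP. The 3 knockouts did not overlap with WT or with each other. The log2 fold change over WT was -5.03 in ISL1-/- (SE 0.49, adjusted p = 9.91e-06), -4.25 in PAX6-/- (SE 0.47, adjusted p = 7.79e-05) and -2.51 in PDX1-/- (SE 0.44, adjusted p = 0.00198), in edgeR. These 3 calls held in every leave-one-out fit and in all 8 other settings. The span of its group means, 5.09 on the log2 scale, exceeded that of 99.7% of tested genes with a mean of at least 10 CPM.

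Between knockouts with BFP, LMO2 was lower in ISL1-/- than in PDX1-/- (log2 -2.53, SE 0.43, adjusted p = 0.00218) and lower in PAX6-/- than in PDX1-/- (-1.74, SE 0.41, adjusted p = 0.0264). The second of these calls was kept in 1 of 6 leave-one-out fits. ISL1-/- and PAX6-/- did not differ past the threshold (-0.78, SE 0.42, adjusted p = 0.57). Under the ISL1 vector LMO2 stayed lower than in WT in ISL1-/- (-2.97, SE 0.45, adjusted p = 0.00118) and in PAX6-/- (-3.68, SE 0.46, adjusted p = 0.000229), and both calls held in every leave-one-out fit. For PDX1-/- the value was -1.04 (SE 0.49, adjusted p = 0.307), from libraries of 9.05 and 37.9 CPM. Without the second of these, replicate 4, it was -2.41 and was called (adjusted p = 0.00806), and without both libraries that stood apart it was -2.41 as well (adjusted p = 0.000793).

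In ISL1-/- cells the ISL1 vector went with more LMO2. Its level was 4.31, 5.87 and 8.34 CPM with the vector, each above all 3 libraries with BFP. The rise was 2.16 on the log2 scale (SE 0.42, adjusted p = 0.0277 in edgeR) and was called in all 8 other settings but in none of the 6 leave-one-out fits, where adjusted p reached 0.18 and the log2 value ran from 1.88 to 2.36. The level with the vector was still below every WT library. In WT the vector difference was 0.09 (SE 0.48), and in PAX6-/-, with 2.77, 3.22 and 5.31 CPM, it was 0.66 (SE 0.41, adjusted p = 0.557). The vector effect in ISL1-/- minus that in WT was 2.07 (SE 0.64, unadjusted p = 0.00471, adjusted p = 1 in edgeR).

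LMO2 is best known from blood and endothelium, so markers of those cells were read beside it. The 8 endothelial genes summed to 116 to 141 CPM in WT, to 32.9 to 58.8 CPM in the knockouts with BFP and to 261 CPM in PDX1-/- with ISL1 vector replicate 4, in the direction of LMO2. Other libraries went against it. PAX6-/- with ISL1 vector replicate 3 summed to 102.6 CPM with LMO2 at 5.31 CPM. PAX6-/- with BFP, at 32.9 to 34.9 CPM, lay below ISL1-/- with BFP, at 43.0 to 47.0 CPM, the reverse of LMO2. Most of each sum was EGFL7, at 95.2 to 104 CPM in WT, and KDR held 14.4 to 34.6 CPM there. PECAM1, CDH5, ERG, TIE1, EMCN and TEK, which define endothelium, were at most 1.77 CPM in any library. Of the 5 blood genes, PTPRC, CD34 and SPI1 were at most 0.175 CPM and RUNX1 up to 17.9 CPM. TAL1, the partner of LMO2 in blood, was at 0.247 CPM or less, and 6 of the 8 genes in the list of bHLH and GATA partners could be tested. GATA2 was the one of them that edgeR called in any of the 16 comparisons. It was lower with the ISL1 vector than with BFP in PAX6-/- (log2 -1.87, SE 0.39, adjusted p = 0.0488) and in PDX1-/- (-2.01, SE 0.46, adjusted p = 0.0106), and lower in PAX6-/- than in WT with that vector (-2.44, SE 0.42, adjusted p = 0.00354). These GATA2 calls were not examined without the libraries that stood apart. Alpha cell genes were in the same order as LMO2 among the groups with BFP. They summed to between 40361 and 54930 CPM for WT, 623 and 676 for ISL1-/-, 1066 and 1777 for PAX6-/-, and 16577 and 21425 for PDX1-/-. Beta cell genes, which were lower in all knockouts too, had another order among them, with 6206 to 7658 CPM for WT, 1772 to 2455 for ISL1-/-, 689 to 1005 for PAX6-/- and 277 to 381 for PDX1-/-. Delta cell genes summed to 399.5 to 533 CPM for WT, 39.1 to 67.1 for ISL1-/-, 62.3 to 110 for PAX6-/- and 42.2 to 73.3 for PDX1-/-, where the knockouts overlapped. The part of cell composition in the LMO2 result was not tested.

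LMO1 (chr11:8224309-8268716), a LIM-only protein known from the nervous system, was low in all libraries. It was at 4.75 and 9.01 CPM in WT with BFP and at 1.04, 0.339 and 0.605 CPM in PAX6-/- with BFP, from 19 to 50 counts each. The decrease was -3.38 on the log2 scale (SE 0.53, adjusted p = 0.00145 in edgeR) and held in every leave-one-out fit and all 8 other settings. With the ISL1 vector, 0.989, 1.10 and 1.64 CPM stood against 5.48 and 6.38 CPM in WT (-2.26, SE 0.51, adjusted p = 0.0182), and this call was kept in 1 of 5 leave-one-out fits and lost with only the groups compared (adjusted p = 0.0893). ISL1-/- with BFP (1.97, 1.75 and 2.58 CPM) and PDX1-/- with BFP (2.08, 3.04 and 1.64 CPM) lay below WT without overlap, at adjusted p = 0.0532 and 0.0501. The direct differences of LMO1 between PAX6-/- and the other knockouts had adjusted p = 0.086 against ISL1-/- and 0.0558 against PDX1-/-, so a lower level in PAX6-/- than in those was not shown.

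LMO4 (chr1:87328880-87348923), the widely expressed form, was at 73.7 and 58.7 CPM in WT with BFP and at 35.3, 24.1 and 20.6 CPM in PDX1-/- with BFP. This decrease passed the test (log2 -1.31, SE 0.34, adjusted p = 0.0213 in edgeR), but the call was kept in 1 of 5 leave-one-out fits. Neither ISL1-/- with BFP, at 46.5 to 55.7 CPM, nor PAX6-/- with BFP, at 40.3 to 57.7 CPM, passed. WT with ISL1 vector, at 104 and 126 CPM, lay above both WT libraries with BFP, but the difference did not pass (log2 0.80, SE 0.38, unadjusted p = 0.0516, adjusted p = 1). ISL1-/- with ISL1 vector, at 62.6 to 78.5 CPM, also lay above all its libraries with BFP. So did PAX6-/- with ISL1 vector, at 65.7 to 123 CPM, and edgeR called LMO4 in neither. In PDX1-/- the libraries with ISL1 vector, at 44.8 and 113 CPM, lay above those with BFP too.

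The make-up of the LMO family changed between genotypes. Per kilobase of exon LMO4 led LMO2 and LMO1 in that order in 14 of 21 libraries, LMO1 stood above LMO2 in 5, and LMO2 was above LMO4 in 2. LMO2 held 45.5 and 52.4% of the LMO level in WT with BFP, 3.77 to 4.67% in ISL1-/- with BFP, 5.73 to 11.8% in PAX6-/- with BFP and 26.3 to 36.4% in PDX1-/- with BFP. None of these ranges overlap. In ISL1-/- with ISL1 vector the share was 8.44, 11.7 and 16.7%.

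**Figure D3:**
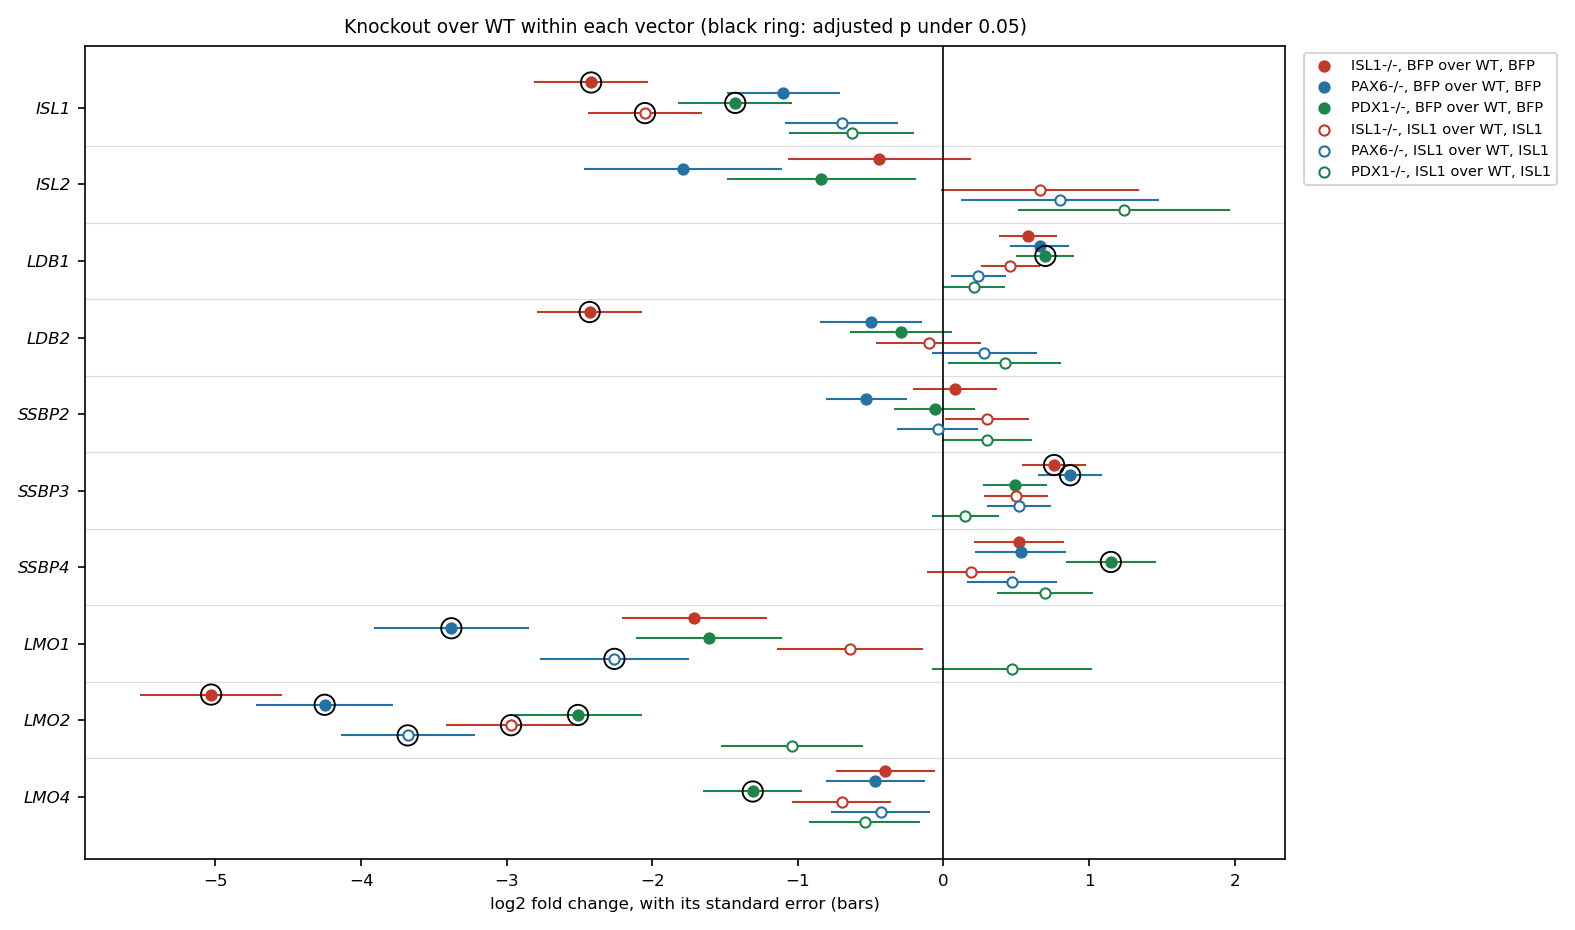
Log2 fold change of each of the 10 genes in each knockout over WT, with its standard error as a bar, filled for libraries with BFP and open for libraries with the ISL1 vector; a black ring marks adjusted p under 0.05. LMO2 has the lowest values, from -5.03 to -1.04, and LDB2 is ringed in ISL1-/- with BFP alone.

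Counted over the 10 genes, all of which passed the filter on low counts, 4 were called in ISL1-/- against WT with BFP (ISL1, LDB2 and LMO2 lower, SSBP3 higher), where 5.59% of 25884 tested genes were called. Of these, ISL1 is the gene labelled as knocked out, here and in the ISL1-/- count with the ISL1 vector below. The count was 3 in PAX6-/- (LMO1 and LMO2 lower, SSBP3 higher) where 5.51% of genes were called. It was 5 in PDX1-/- (ISL1, LMO2 and LMO4 lower, LDB1 and SSBP4 higher) where 9.68% were called. The median log2 fold change of the 10 was -0.42, -0.52 and -0.56 in these comparisons, against 0.02, 0.03 and 0.03 over all tested genes. These comparisons share the WT libraries.

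With the ISL1 vector the counts were 2 in ISL1-/- (ISL1 and LMO2 lower) with 3.72% of genes called, 2 in PAX6-/- (LMO1 and LMO2 lower) with 3.56% of genes called, and 0 in PDX1-/- with 0.634% of genes called. In the last comparison edgeR gave unadjusted p under 0.05 for 2 of the 10, beside 4164 of the 25884 tested genes. DESeq2 called 0 of the 10 with 2.71% of genes called, and limma voom with sample weights called 0 genes. The median log2 fold changes of the 10 were 0.04, 0.10 and 0.26, against 0.03, 0.13 and 0.10 over all tested genes. Between knockouts with BFP, 1 gene (LDB2) was called for ISL1-/- against PAX6-/- where 2.46% of genes were called, 2 (LDB2 and LMO2) for ISL1-/- against PDX1-/- where 5.07% were called, and 1 (LMO2) for PAX6-/- against PDX1-/- where 3.04% were called.

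The ISL1 vector against BFP changed 0 of the 10 in WT, where 0.0270% of genes were called. There edgeR gave 0 of the 10 and 988 of the 25884 tested genes at an unadjusted p under 0.05. DESeq2 called 0 with 0.27% of genes called, and limma voom with sample weights called 1, LMO4, with 2.01%. In ISL1-/- 1 gene (LMO2) was called with 0.382% of genes. In PAX6-/- the count was 0 with 0.355% of genes called. At an unadjusted p under 0.05 it was 2, beside 2658 of the 25884 tested genes. It was 0 in DESeq2, with 2.22% of genes called, and 2 (LDB1 and SSBP4) in limma voom with sample weights, with 9.96%.

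In PDX1-/- the vector comparison called 3 of the 10, all LMO genes and all higher, where 12.5% of genes were called. The log2 values were 1.87 for LMO1 (SE 0.50, adjusted p = 0.0232), 1.55 for LMO2 (SE 0.44, adjusted p = 0.0293) and 1.57 for LMO4 (SE 0.34, adjusted p = 0.0085). Their size rests on replicate 4, which held 13.4 CPM of LMO1, 37.9 of LMO2 and 113 of LMO4, against 3.18, 9.05 and 44.8 CPM in replicate 2. Each replicate 2 value also lay above the PDX1-/- libraries with BFP, whose highest were 3.04, 8.06 and 35.3 CPM. Without replicate 4 the log2 values were 0.50, 0.18 and 0.76, and none was called. This is also the library with the highest mitochondrial share and the highest alpha, beta and delta cell sums, at 120426, 25840 and 1374 CPM. Replicate 2 had 14278, 373 and 251 CPM. The beta cell sum of WT libraries lay between 6206 and 9153 CPM. The part of any of these in the LMO values was not tested.

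**Figure D4:**
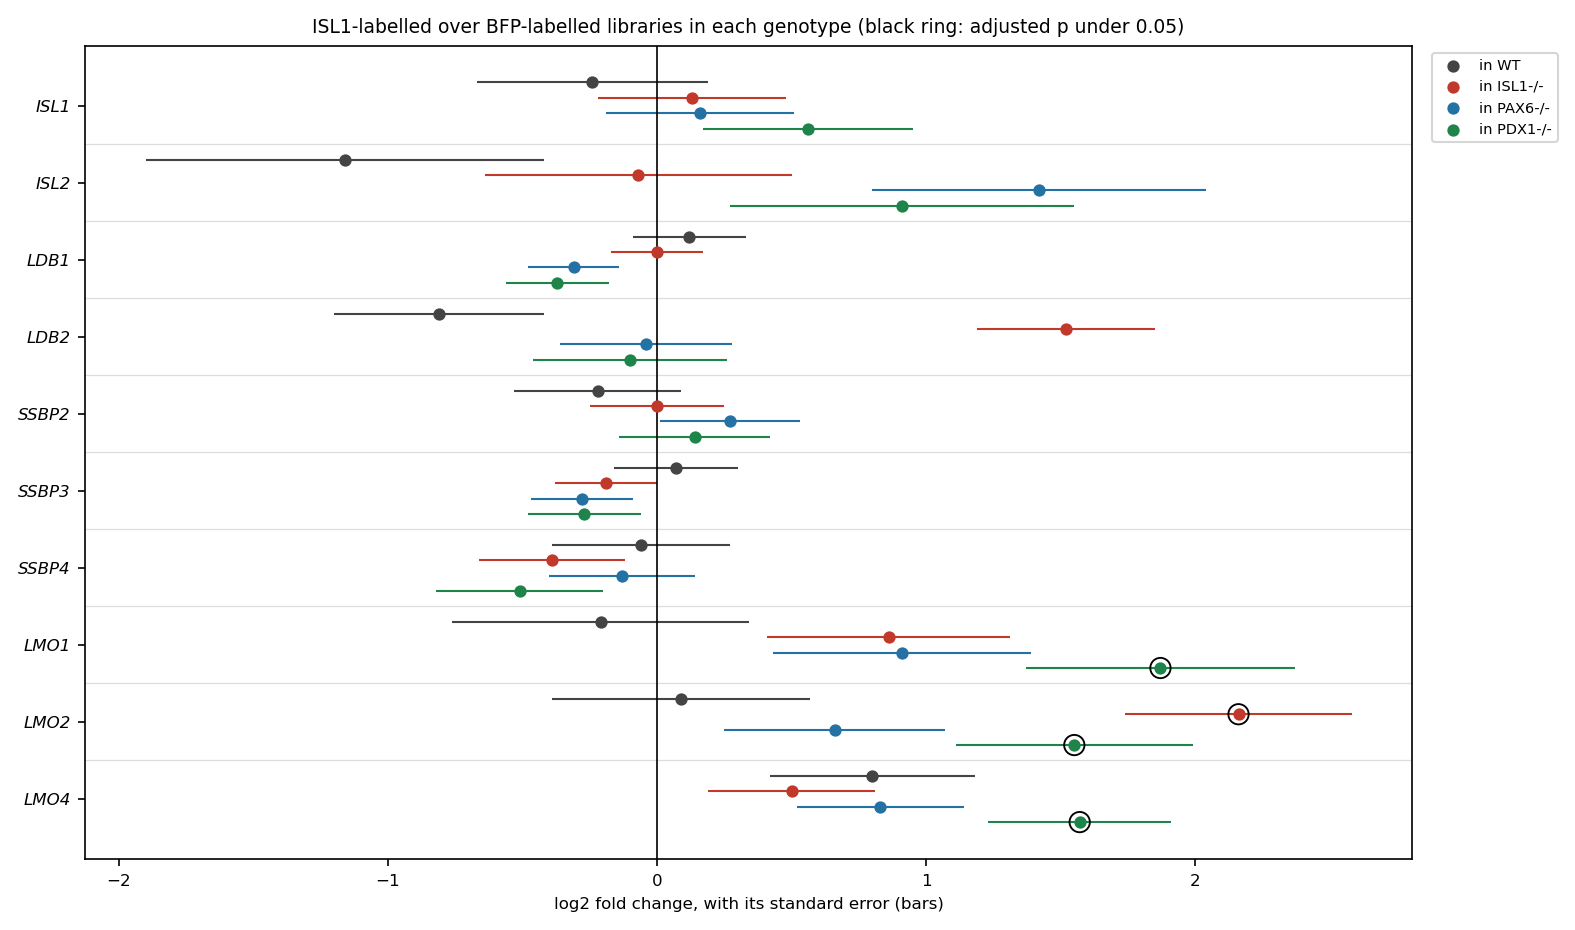
Log2 fold change of each of the 10 genes between libraries with the ISL1 vector and libraries with BFP, by genotype, with its standard error as a bar; a black ring marks adjusted p under 0.05. LMO2 is ringed in ISL1-/- at 2.16, and the 3 LMO genes are ringed in PDX1-/-, where replicate 4 held far higher values than replicate 2.

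For the vector effect in a knockout minus that in WT, edgeR called 0 of the 10 for each knockout, where 0.00386% of genes were called for ISL1-/-, 0.00% for PAX6-/- and 1.19% for PDX1-/-. At an unadjusted p under 0.05 the counts were 2, 1 and 3, beside 769, 916 and 4150 of the 25884 tested genes. DESeq2 called 1 for ISL1-/-, LDB2, and limma voom with sample weights called 2, LDB2 and LMO2, while both called 0 in the other 2 comparisons. For ISL1-/- these settings called 0.159 and 0.58% of all genes. Without both libraries that stood apart, edgeR called LDB2 and LMO2 in the ISL1-/- comparison, where 0.308% of genes were called.

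The other LIM-homeodomain factors, which use the same adaptors, were read from a list of 10 genes, of which 8 could be tested. With BFP, 1 was higher and 2 lower in ISL1-/- than in WT, 1 was higher in PAX6-/-, and 2 were higher and 2 lower in PDX1-/-, where 5.59, 5.51 and 9.68% of all tested genes were called in either direction. LMX1A, a marker of serotonin-producing enterochromaffin cells here, rose from a mean of 91.0 CPM in WT to 303 in ISL1-/- (log2 1.74, SE 0.44, adjusted p = 0.0263) and 553 in PDX1-/- (2.60, SE 0.46, adjusted p = 0.00195), in edgeR. The first of these calls was lost in all 5 leave-one-out fits and the second in none. LMX1B rose in PAX6-/- (1.55, SE 0.43, adjusted p = 0.0412) and in PDX1-/-, and the first of these calls was kept in 1 of 5 leave-one-out fits and lost with the replicate block by title (adjusted p = 0.0572). LHX1, at 5.58 CPM in WT, changed by -2.40 on the log2 scale in ISL1-/- (SE 0.67, adjusted p = 0.0425, lost in all 5 leave-one-out fits) and by -2.94 in PDX1-/- (SE 0.68, adjusted p = 0.0107, lost in 3 of 5 leave-one-out fits, without PDX1-/- with BFP replicate 2 or either WT library with BFP), and LHX4 fell in both. The sum of the 4 enterochromaffin markers, of which LMX1A is one, was 540 to 666 CPM in WT with BFP, 1533 to 2134 in ISL1-/-, 966 to 1625 in PAX6-/- and 2774 to 3340 in PDX1-/-. Of 7 further proteins that bind or modify LIM complexes, LMO3 was the one called in any of the 16 comparisons. It was higher in ISL1-/- than in PDX1-/- with BFP (1.31, SE 0.37, adjusted p = 0.0465).

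Among 10 genes described as ISL1 or LDB1 targets in islets, 5 were lower in ISL1-/- than in WT with BFP, 4 in PAX6-/- and 4 in PDX1-/-, beside the same 5.59, 5.51 and 9.68% of all tested genes. SLC2A2 and IAPP, the islet amyloid gene, were lower in all 3. GCG, the glucagon gene, averaged 43781 CPM in WT with BFP, 83.5 in ISL1-/- with BFP and 3416 in ISL1-/- with ISL1 vector, a rise of 5.35 on the log2 scale with the vector (SE 0.97, adjusted p = 0.0176 in edgeR). That call was kept in 1 of 6 leave-one-out fits. Of 18 islet transcription factors, 2 were higher and 2 lower in ISL1-/- than in WT with BFP, 4 higher and 1 lower in PAX6-/-, and 5 higher and 2 lower in PDX1-/-, again beside 5.59, 5.51 and 9.68% of all tested genes. HHEX, a factor of delta cells, was lower in each and higher with the ISL1 vector in each knockout. It averaged 27.1 CPM in WT with BFP, and 5.07, 7.50 and 5.60 CPM in ISL1-/-, PAX6-/- and PDX1-/- with BFP. With the ISL1 vector WT averaged 96.8 CPM, and the same knockouts 31.6, 32.9 and 34.7 CPM. The rise with the vector passed in ISL1-/- (2.64, SE 0.30, adjusted p = 0.000346), PAX6-/- (2.13, SE 0.29, adjusted p = 0.00487) and PDX1-/- (2.63, SE 0.31, adjusted p = 0.000115), and held in every leave-one-out fit. With only the groups compared it was lost in PAX6-/- (adjusted p = 0.466) and PDX1-/- (adjusted p = 0.201), and in PDX1-/- also with limma voom. In WT it was 1.84 (SE 0.35, adjusted p = 0.0854).

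The genes whose profile over the 21 libraries was most like that of a member were found by the root mean square difference of centred log2 CPM, among about 10884 genes. For LMO2 they were GPR119, a receptor on islet cells, DUOXA2 and SLC30A8, the zinc transporter of insulin granules, at 0.70, 0.76 and 0.82, where the median gene was at 1.79. For ISL1 they were CD55, NR2F1 and CPE at 0.34, 0.39 and 0.40 (median 0.94). For LDB2 they were CPE, ASXL3 and FOXO1 at 0.44, 0.47 and 0.49 (median 0.88). For LMO1 they were CHST9, CACNA2D3 and SERPINI1 at 0.59, 0.63 and 0.64, and for LMO4 they were TGIF1, CNN3 and NR2F2 at 0.30, 0.30 and 0.31 (median 0.82). For ISL2, with its few counts, the nearest was PLSCR1 at 0.56 (median 0.85).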

How the data were processed

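Raw read counts per gene were deposited by the authors in 1 table for all 21 libraries. Per the submitters' processing notes the tools include STAR 2.7.11b and featureCounts 2.1.1 and the build is GRCh38, while the strand setting, the annotation release and the treatment of multimapping reads are not given in the sources used here. Of 62700 genes 62699 were used, since 1 entry was broken over 3 lines, and no gene ID lacked a symbol. Libraries carry the number in their description. The counts of all libraries entered 1 model in edgeR 4.0.16 (R 4.3.3), its quasi-likelihood test being the main one, of 8 groups with TMM scaling, for genes kept by filterByExpr (minimum count 10, total 15). Benjamini-Hochberg adjustment ran over 25884 genes for each of 16 comparisons, with calls at an adjusted p under 0.05. Fold changes use a prior count of 0.125. CPM is the count relative to the TMM library size, and levels of different genes were compared only after division by exon length. The test was checked on counts simulated for PAX6-/- against WT with BFP over 25135 genes. It recovered 88 of 100 genes changed by 2 and 100 of 100 changed by 3 on the log2 scale, with 8 false calls. In the simulation every unchanged gene had the same mean in all groups, and no library was made to stand apart. The recovery and false calls describe that setting and not the deposited counts. Alternatives were RLE scaling, DESeq2 1.42.0, limma 3.58.1 voom with sample quality weights, no filter, only the groups compared, a replicate block by either number, each library left out in turn and, added after seeing the data, both libraries that stood apart left out. Genes other than the 10 were named when called, up to 4 for each list and comparison, and likeness was read for members whose group means span over 1.5 (log2) against genes of at least 10 CPM. The members and lists were chosen with earlier results of these data known. No 2 libraries of a group agreed within sampling noise. Libraries of a genotype with the same number and different vectors were compared by the correlation of their deviations from group means. It was 0.155, 0.391 and 0.333 in PAX6-/-, 0.183, 0.099 and 0.293 in ISL1-/-, -0.212 in PDX1-/- and -0.039 in WT. Replicate 2 of PAX6-/- and of PDX1-/-, both with ISL1 vector, reached 0.418. These values do not show that a number marks a shared culture.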

Additional observations from a re-analysis of the deposited data

Results flagged for a closer look

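The effect of the ISL1 vector on SLC2A2, the glucose transporter gene GLUT2 and 1 of the 10 described targets, differed between PDX1-/- and WT. In WT it was at 25.7 and 29.1 CPM with BFP and at 6.53 and 6.97 CPM with the ISL1 vector, while PDX1-/- had 1.81 to 4.30 CPM with BFP and 12.9 and 15.3 CPM with the ISL1 vector. The difference of the 2 vector effects was 4.41 on the log2 scale (SE 0.75, adjusted p = 0.00861 in edgeR). It was from 4.19 to 4.92 in the 9 leave-one-out fits and lost its call without either WT library with ISL1 vector, with limma voom (adjusted p = 0.0899) and with only the groups compared (adjusted p = 0.169).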

How the results depend on the processing

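The number of the 10 genes called moved with the settings, while no called change reversed its direction in any of them. The calls of LMO2 in each knockout against WT with BFP, of ISL1 and LDB2 in ISL1-/- and of LMO1 in PAX6-/- were present under every alternative. With limma voom the counts became 1, 3, 2 and 0 for the vector (WT, ISL1-/-, PAX6-/-, PDX1-/-), 7 and 9 for ISL1-/- and PAX6-/- against WT with BFP, 5 and 6 with the ISL1 vector, 4, 6 and 6 between knockouts, and 2 for the difference of vector effects in ISL1-/-. With only the groups compared they were 3 and 0 for the vector in ISL1-/- and PDX1-/-, 7 and 7 with BFP, 5 and 1 with the ISL1 vector, 4, 6 and 6 between knockouts, and 1 for the ISL1-/- difference. Without both libraries that stood apart they were 2, 1 and 0 for the vector in ISL1-/-, PAX6-/- and PDX1-/-, 7 and 7 with BFP, 5, 6 and 4 with the ISL1 vector, 4, 6 and 6 between knockouts, and 2 for the ISL1-/- difference. DESeq2 gave 2 for the vector in ISL1-/-, 3 for ISL1-/- against PAX6-/-, 2 for PAX6-/- against PDX1-/- and 1 for the ISL1-/- difference. Over all genes it called 1.49, 4.12, 6.53 and 0.159% there. No filter gave 2, 3 and 2 for the first 3 of these, beside 0.32, 1.59 and 1.63% of genes. Calls over all genes moved as well: for ISL1-/- and PAX6-/- against WT with BFP, 5.59 and 5.51% of genes became 26.6 and 25.9% with limma voom, 25.4 and 21.8% with only the groups compared and 23.5 and 23.5% without both libraries. For PDX1-/- against WT with ISL1 vector, 0.634% became 0, 0 and 6.66%, and for the vector in PDX1-/- 12.5% became 0.085, 0 and 8.92%. Between knockouts, 2.46, 5.07 and 3.04% became 12.4, 27.7 and 15.1% with limma voom, and 7.26, 24.3 and 14.2% with only the groups compared. Without both libraries they were 8.74, 21.7 and 16.3%. For ISL1-/- and PAX6-/- against WT with the ISL1 vector, 3.72 and 3.56% became 24.5 and 16.3% with limma voom. With only the groups compared they were 24.6 and 0.185%, and without both libraries 19.5 and 12.2%. For the vector in ISL1-/-, 0.382% became 8.2, 6.51 and 4.93% in the 3 settings. For the vector in WT and PAX6-/- limma voom called 2.01 and 9.96%, and without both libraries PAX6-/- had 4.97%. For the ISL1-/- difference the shares were 0.58, 0.443 and 0.308% in the 3 settings. The cause of these moves was not tested.

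With the replicate block, the vector counts were 2 for ISL1-/- (LDB2 and LMO2), 0 for PAX6-/- as without the block and 0 for PDX1-/-. Beside them 1.87, 2.23 and 2.09% of all tested genes were called. The count was 5 for PAX6-/- against WT with BFP (13% of genes) and 1 for PDX1-/- against WT with the ISL1 vector (2.96%). Between knockouts it was 3, 4 and 2, where 4.91, 11.5 and 7.68% of genes were called. With the block by title the counts were 2 for the vector in ISL1-/- (0.464% of genes) and 2 for ISL1-/- against PAX6-/- (2.67%). In the block by description, PDX1-/- with ISL1 vector replicate 4 has a number of its own and adds nothing to its group. Leaving out 1 library gave counts from 0 to 2 for the vector in ISL1-/-, 0 to 4 in PDX1-/-, 2 to 5 for PAX6-/- and 1 to 7 for PDX1-/- against WT with BFP, 1 to 2, 1 to 2 and 0 to 1 for ISL1-/-, PAX6-/- and PDX1-/- with the ISL1 vector, 1 to 3, 2 to 5 and 0 to 3 between knockouts, and 0 to 4 for the PDX1-/- difference. Where a group was left with 1 library, that library is assumed to vary like the others. Groups of 2 or 3 limit the precision, and ISL2 and LMO1 in PAX6-/- rest on at most 23 and 50 counts.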
